A study of Bos taurus with 14 samples.

Results

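The amino acid response genes driven by the transcription factor ATF4 were described in longissimus dorsi muscle of cattle. The set held 10 genes, each matched by its symbol in the deposited count table of 18078 rows: the factors ATF4, ATF5 and DDIT3, the enzymes ASNS, PSAT1, PHGDH and MTHFD2, the transporter SLC7A5, and the regulators SESN2 and TRIB3. The table covered 14 female offspring sampled at postnatal day 485. 7 were born to control dams, fed at 100% of their requirement, and 7 to dams on a restricted ration, in both cases from gestation day 158 to birth. The submitters give the restricted ration as 70% of requirement in one text and as 50% in another, so these offspring are called restricted here. All offspring were managed alike after birth and had feed without limit from postnatal day 301. Each animal gave 1 library of total RNA from whole muscle, and whether animals shared a sire or dam is not given in the sources used here.

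When amino acids run short, uncharged transfer RNA activates the kinase GCN2, which phosphorylates the initiation factor eIF2. Other kinases do the same under endoplasmic reticulum stress, viral RNA or mitochondrial stress, and the shared outcome is called the integrated stress response. General protein synthesis then slows while the ATF4 message is translated more, so that ATF4 protein can increase with little change in its mRNA. ATF4 protein raises the transcription of genes for amino acid synthesis, uptake and transfer RNA charging. In muscle the same genes are known to respond to protein shortage and to mitochondrial defects.

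Depth ranged from 13631018 to 17325779 assigned reads per animal. After the low-count filter 12187 genes were tested, 8 of the 10 ATF4 response genes among them, while TRIB3 and SLC7A5 had too few reads and were examined without the filter. Levels are given as CPM, a gene's reads relative to its library's total with scaling by the trimmed mean of M-values, or as TPM, which also divides by gene length and so allows genes to be compared. Muscle fibre markers were abundant in every library, with a summed level of 155597 to 204672 CPM in controls and 180469 to 212963 CPM in restricted animals over the 10 of 11 markers found (TTN was not found under that symbol). 2 libraries stood apart. Restricted 1 had high levels of many ATF4 response genes, and restricted 7 had a summed interferon-response level of 471 CPM, against 16.7 to 233 CPM in controls and at least 19.4 CPM in every restricted animal. Results on the 10 genes that rest on them are given with and without them. In bulk muscle, fewer cells of a type and less RNA per cell cannot be told apart.

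Per unit length, ATF4 stood far above the genes it regulates. Its median over the 14 animals was 3553 TPM (range 2752 to 4260). DDIT3 followed with a median of 13.3 TPM and ATF5 with 11.8 TPM, and these neighbours were not separated, since DDIT3 was above ATF5 in 8 of 14 animals. ASNS came next at 3.09 TPM and was below ATF5 in 13 of 14 animals. MTHFD2 had a median of 1.60 TPM, PHGDH of 1.23 TPM, PSAT1 of 0.937 TPM and SESN2 of 0.728 TPM. Among these 4, MTHFD2 exceeded PHGDH in 8 animals, PHGDH exceeded PSAT1 in 11 and PSAT1 exceeded SESN2 in 11, so their ranges overlapped. SLC7A5 (0.205 TPM) and TRIB3 (0.154 TPM) were lowest and not separated from each other, with SLC7A5 higher in 8 animals.

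**Figure D1:**
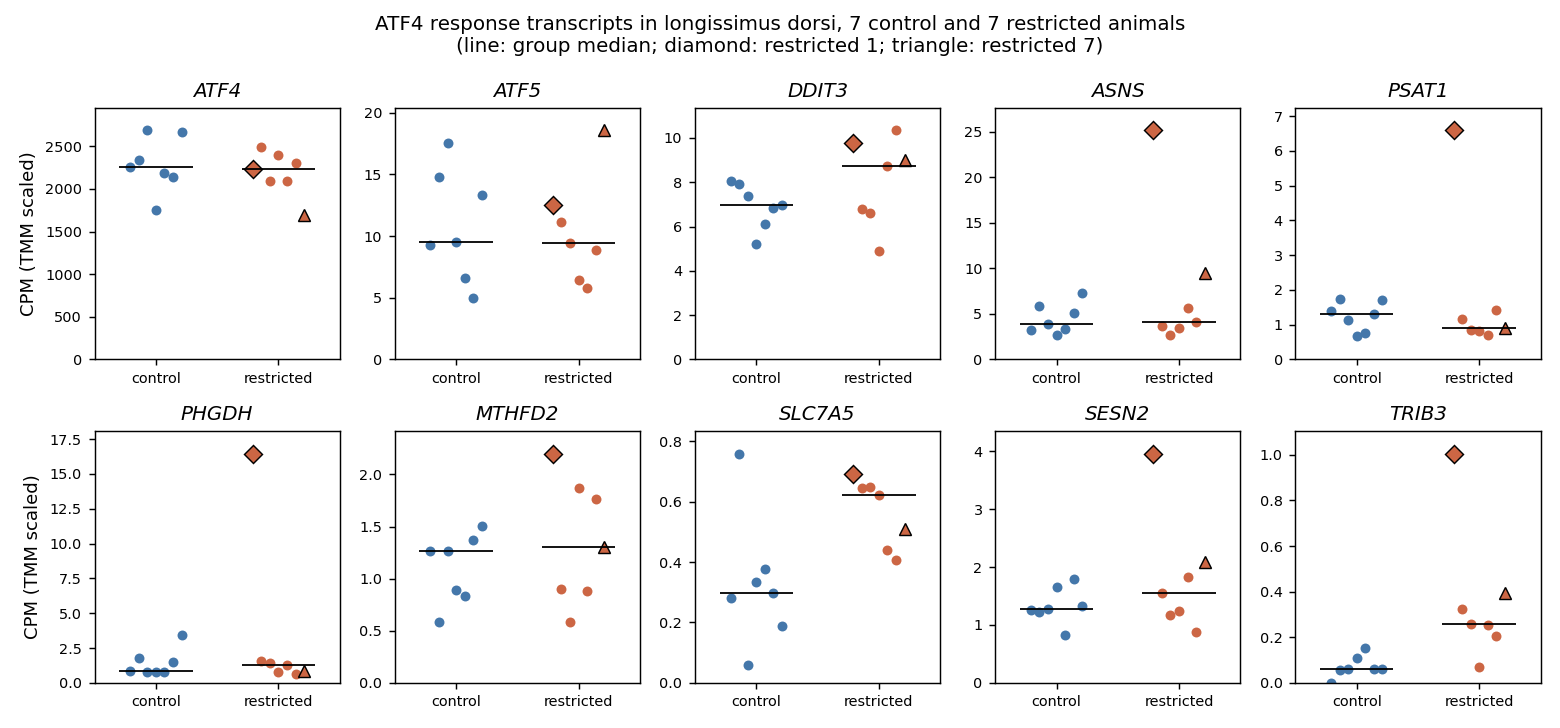
Level of each of the 10 genes in CPM (vertical axes, linear, each with its own scale from 0) in the 7 control and 7 restricted animals; each point is 1 animal and the line is the group median. Restricted 1, drawn as a diamond, is the highest animal for ASNS, PSAT1, PHGDH, MTHFD2, SESN2 and TRIB3 but lies at the group median for ATF4.

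The question set by the study is whether restriction of the dam in late gestation left a difference in muscle of the grown offspring. None of the 8 tested ATF4 response genes differed between diet groups past the threshold (edgeR quasi-likelihood test, adjusted p = 1 for each). Over all genes 0 of 12187 passed (0%). At an unadjusted p under 0.05 the count was 0 of these 8 genes, against 518 of all genes (4.25%). The fitted fold was above 1 for 6 of the 8 genes, with a median log2 fold change of 0.37, against 49.7% of all tested genes and a median of -8e-04. The largest of these folds rested on 1 animal, as the values of each gene show. Without that animal, restricted 1, the fold was above 1 for 4 of the 8 genes, with a median log2 fold change of 0.019.

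ATF4 mRNA had similar ranges in the diet groups. Controls ran from 1751 to 2685 CPM with a median of 2262, and restricted animals from 1699 to 2490 CPM with a median of 2232. Each range held the median of the other group, and the fold of restricted over control was 0.954 (95% interval 0.823 to 1.11). Variation between animals was ordinary for this gene: its biological coefficient of variation stood at percentile 39.8 of all tested genes. ATF5, a related factor whose translation is controlled in the same way, varied more widely, from 4.94 to 17.5 CPM in controls (median 9.53) and from 5.79 to 18.6 CPM in restricted animals (median 9.46). Its fold was 0.958 (95% interval 0.636 to 1.44), and restricted 7 had the highest level. DDIT3, which encodes CHOP, a factor linked to cell death under lasting stress, ranged from 5.21 to 8.07 CPM in controls (median 6.98). In restricted animals it ranged from 4.90 to 10.3 CPM (median 8.75). 4 restricted animals lay above every control, which 3.51% of tested genes met or exceeded, and the fold was 1.16 (95% interval 0.926 to 1.45, unadjusted p = 0.183).

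ASNS, which makes asparagine from aspartate and is among the most responsive ATF4 targets, ran from 2.66 to 7.35 CPM in controls (median 3.87). In restricted animals the lowest level was 2.66 CPM, the median 4.15 CPM and the highest 25.2 CPM. The highest belonged to restricted 1, with 401 reads, and the next to restricted 7 at 9.51 CPM; 4 of the other 5 restricted animals lay within the control range, and restricted 3 was level with the lowest control, marginally below it. The fold over all 14 animals was 1.73 (95% interval 0.905 to 3.29, unadjusted p = 0.0925). Without restricted 1 the log2 fold change went from 0.79 to 0.11, and without restricted 1 and restricted 7 it was -0.20.

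Over all animals, restricted 1 included, the first enzymes of serine synthesis and ASNS varied most among the 8 tested genes. Among controls alone PHGDH still varied most, with a coefficient of variation of CPM of 70.1%. There ATF5, at 41.7%, varied more than ASNS (37.4%) and PSAT1 (34.0%). PHGDH, which draws 3-phosphoglycerate out of glycolysis, had 10 to 55 reads in controls (0.753 to 3.46 CPM, median 0.842). In restricted animals it had 9 to 262 reads, from 0.612 to 16.4 CPM with a median of 1.26. Restricted 1 held the 262 reads, and the next restricted animal was at 1.55 CPM; control 7 was second of all animals. The biological coefficient of variation of PHGDH was at percentile 99.6 of tested genes. Its fold was 2.30 (95% interval 0.818 to 6.47, unadjusted p = 0.107), and without restricted 1 it turned over, to a log2 fold change of -0.40.

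PSAT1, the aminotransferase that follows PHGDH, had 10 to 30 reads in controls (0.665 to 1.75 CPM, median 1.31). Restricted animals ran from 0.693 to 6.59 CPM with a median of 0.905. Restricted 1 held 105 reads, and the other 6 restricted animals reached at most 1.43 CPM, inside the control range. The fold of 1.42 (95% interval 0.709 to 2.86) likewise turned over without restricted 1, from a log2 fold change of 0.51 to -0.36. MTHFD2, a folate enzyme of mitochondria, ran from 0.583 to 1.51 CPM in controls (median 1.26) and from 0.583 to 2.20 CPM in restricted animals (median 1.30). Restricted 1 was again highest, now only a little above restricted 4 at 1.86 CPM. The fold of MTHFD2 was 1.23 (95% interval 0.804 to 1.88), and its log2 fold change was 0.30 with restricted 1 and 0.14 without.

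SESN2, a leucine sensor that restrains the growth kinase mTORC1, had 11 to 30 reads in controls (0.829 to 1.79 CPM, median 1.27). Restricted animals ran from 0.884 to 3.95 CPM with a median of 1.55. Restricted 1 (63 reads) and restricted 7 (37 reads) were the highest of all animals, and the groups otherwise overlapped. The fold of SESN2 was 1.36 (95% interval 0.890 to 2.06, unadjusted p = 0.146), and its log2 fold change was 0.44 with restricted 1 and 0.13 without.

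**Figure D2:**
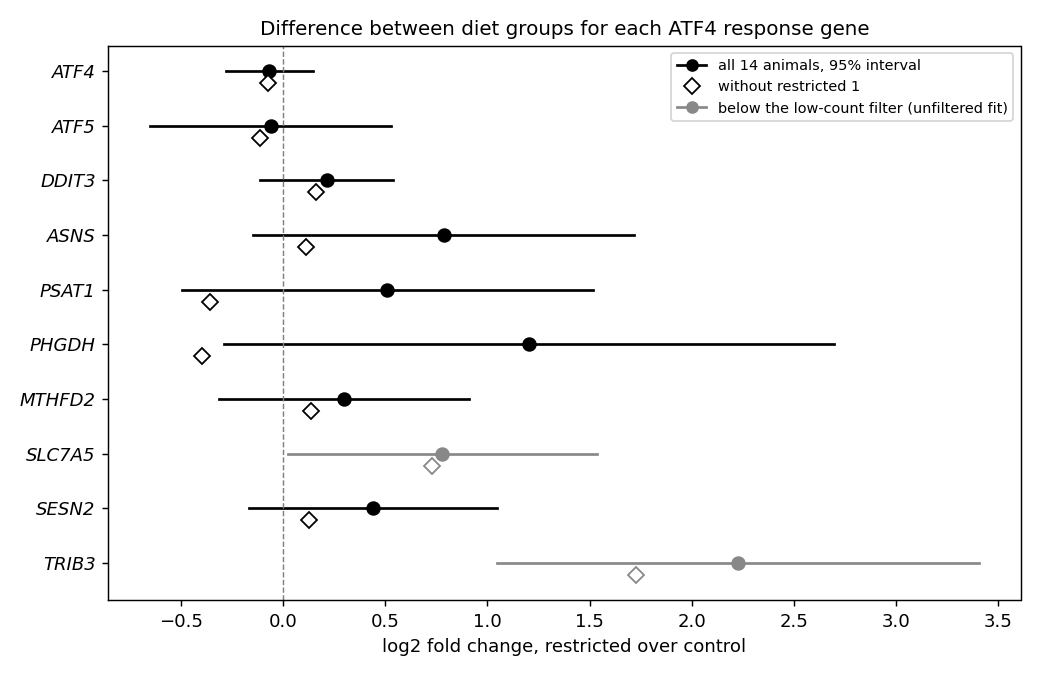
Log2 fold change of restricted over control animals (horizontal axis) for each gene (vertical axis), with all 14 animals as filled points with 95% intervals and without restricted 1 as open diamonds; grey marks TRIB3 and SLC7A5 from the fit without the low-count filter. The intervals of the 8 tested genes include 0, and PHGDH and PSAT1 change sign without restricted 1.

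The 2 genes below the filter had higher levels in most restricted animals than in most controls, from few reads. TRIB3 encodes a pseudokinase that is induced by ATF4 and CHOP and in turn dampens them. Control animals 1 to 7 had 0, 1, 1, 2, 2, 1 and 1 reads, and restricted animals 1 to 7 had 16, 5, 4, 1, 4, 3 and 7. 6 of 7 restricted animals lay above the highest control, a separation met by 0.140% of the rows with reads that failed the filter. All 7 lay above the control median (1.37% of such rows). Rows with too few reads to meet these conditions count among them and lower both shares. Among tested rows the shares were 0.189% and 2.99%. Summed over animals there were 8 reads in controls and 40 in restricted animals, or 24 without restricted 1. In the one library without a TRIB3 read, control 1, a count of 0 allows up to 3 reads (0.21 CPM). In the unfiltered edgeR fit the fold was 4.67 (95% interval 2.06 to 10.6, unadjusted p = 0.000887), which did not pass adjustment over the 17885 rows with a read (adjusted p = 0.886). Without restricted 1 it was 3.31 (95% interval 1.58 to 6.94, unadjusted p = 0.00325). In the unfiltered fit of all animals 2.76% of rows were higher in restricted animals at an unadjusted p under 0.05.

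A two-sided exact permutation test of TRIB3 over the 3432 assignments of animals to groups gave a difference of 1.14 in mean log2 CPM and p = 0.00233, where the smallest p this design can give is 0.000583. Without restricted 1 the difference was 0.90 (exact permutation p = 0.00583), and without restricted 1 and restricted 7 it was 0.79 (exact permutation p = 0.0114). Counting error is large at these depths, and the log2 scale with a prior count of 2 understates ratios of so few reads.

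SLC7A5, the light chain of the transporter that carries leucine and other large neutral amino acids, had 4, 13, 1, 6, 5, 5 and 3 reads in control animals 1 to 7. Restricted animals 1 to 7 had 11, 10, 10, 9, 7, 6 and 9. All 7 restricted animals were above the control median of 0.298 CPM, but control 2, at 0.758 CPM, was above all of them. The unfiltered edgeR fold was 1.72 (95% interval 1.02 to 2.90, unadjusted p = 0.0440, adjusted p = 0.886). Without restricted 1 it was 1.65, with an interval that includes 1 (0.945 to 2.90, unadjusted p = 0.0753). The exact permutation test gave a difference of 0.73 in mean log2 CPM with p = 0.0163, two-sided, and without restricted 1 and restricted 7 the difference was 0.70 with exact permutation p = 0.0505. For the other 8 genes the same exact permutation test gave p-values from 0.287 (DDIT3) to 0.894 (PSAT1).

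**Figure D3:**
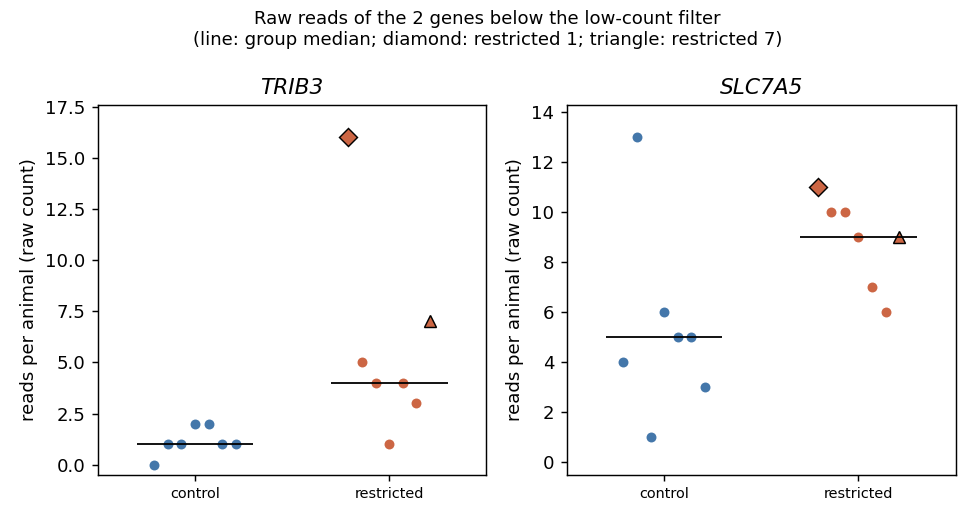
Raw reads per animal (vertical axes, from 0) of TRIB3 and SLC7A5 in the 7 control and 7 restricted animals, with the group median as a line. TRIB3 had 0 to 2 reads in controls and 1 to 16 in restricted animals, with 1 restricted animal inside the control range; for SLC7A5 the highest animal, at 13 reads, was a control.

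Of the 14 animals, restricted 1 carried the highest level of 6 of the 10 genes: ASNS, PHGDH, PSAT1, MTHFD2, SESN2 and TRIB3. Of the 8 tested genes it was the highest animal for 5, against 7.75% of all tested genes. It was first or second for 8 of the 10, for which no share over all genes is given here. Against the median of the other 13 animals its level was 19.4 times as high for PHGDH, 6.51 times for ASNS, 5.74 times for PSAT1 and 3.12 times for SESN2. These 4 genes were at least 1 log2 unit above that median, as were 0.960% of all tested genes. Ranked by this excess among the 12187 genes, PHGDH was in place 2, ASNS in place 6, PSAT1 in place 11 and SESN2 in place 28. The excess was smaller for MTHFD2 (1.74 times), DDIT3 (1.40 times) and ATF5 (1.33 times), and ATF4 mRNA stood at 0.987 times the median of the others.

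Restricted 7 showed another combination. Its levels of ASNS, TRIB3 and SESN2 were second to restricted 1, at 2.46, 3.58 and 1.65 times the median of the other 13 animals, and its ATF5 was the highest of all at 1.96 times. PHGDH (0.674 times) and PSAT1 (0.780 times) were below the median there, and ATF4 mRNA was the lowest of the 14 animals. Restricted 7 was the highest animal for 9.39% of all tested genes, and for all 13 tested interferon-response genes. It also had the highest summed levels of adipocyte (339 CPM), fibroblast (961 CPM) and macrophage markers (37.7 CPM), and the part of these in its levels was not tested. Control 7 was second for PHGDH, at 4.07 times the median of the others, and for ASNS it followed restricted 1 and restricted 7, at 1.90 times.

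The question of covariation was put to the 28 pairs of the 8 tested genes over the 14 animals. Pearson's r of log2 CPM was above 0 for 25 pairs, with a median of 0.324. In 7 pairs the unadjusted permutation p was under 0.05, and 0 pairs passed after Benjamini-Hochberg adjustment over the 28, by Pearson's r or by Spearman's rho. The highest correlation joined the 2 serine enzymes, PSAT1 and PHGDH (r = 0.854, permutation p = 0.00329; rho = 0.569, permutation p = 0.0356). ASNS followed them closely, with r = 0.807 to PHGDH (rho = 0.547) and r = 0.786 to PSAT1 (rho = 0.565), and had r = 0.775 to SESN2 (rho = 0.552). Each of these 4 pairs had an adjusted permutation p of 0.0552 by Pearson's r and 0.217 by rho.

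Much of this covariation rested on restricted 1. Without it r fell to 0.477 for PSAT1 and PHGDH, 0.420 for ASNS and PHGDH, 0.358 for ASNS and PSAT1, and 0.448 for ASNS and SESN2. Over all pairs the median was then 0.219, with 21 of 28 above 0. Without the 2 animals farthest from the median of the first gene, r was 0.434 for PSAT1 and PHGDH (without control 4 and restricted 1). For the pairs with ASNS those animals were restricted 1 and restricted 7, and r was 0.672 with PHGDH, 0.577 with PSAT1 and 0.211 with SESN2. Among the 7 controls alone, ASNS and PHGDH had r = 0.940 and rho = 0.821 (exact permutation p = 0.00258 and 0.0341, two-sided), with an adjusted p of 0.0722 over the 28 pairs for r. Among the 7 restricted animals alone, ASNS and SESN2 had r = 0.912 (exact permutation p = 0.00615, adjusted p = 0.172). These 7 include restricted 1 and restricted 7, the 2 highest animals for both genes.

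Sample titles open with R or Y and close with A or B, and what these letters stand for is not stated. Restricted 1 has R and B. Within the 9 animals with A, r of ASNS and PHGDH was 0.657 and that of PSAT1 and PHGDH 0.327. Among the 11 animals with Y these were 0.357 and 0.483. The 5 animals with B and the 3 with R were too few for a correlation to be given.

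Over all 14 animals ATF4 mRNA had low correlations with the other genes. Its r with the other 7 ran from -0.299 (SESN2) to 0.317 (PSAT1), and the value with ASNS was -0.027 (rho = 0.116). Within the diet groups the values differed in sign for several genes. Among the 7 controls r was 0.699 with DDIT3, 0.670 with PSAT1, 0.630 with ASNS and 0.563 with ATF5, and among the 7 restricted animals it was -0.372, 0.201, -0.307 and -0.526 in the same order. None of these passed adjustment over the 28 pairs (lowest adjusted exact permutation p = 0.440 in controls and 0.618 in restricted animals), and the difference between the groups was not tested. Without its 2 farthest animals, control 4 and restricted 7, ATF4 had r = 0.677 with ATF5, and among the 9 animals with A it was 0.778. For the same pair r was 0.065 among the 11 animals with Y and 0.095 without restricted 1. With the remaining genes, r of ATF4 without control 4 and restricted 7 ran from -0.164 (DDIT3) to 0.284 (MTHFD2). Leaving out restricted 1 gave -0.060 for ATF4 with ASNS and 0.578 for ATF4 with PSAT1 (unadjusted permutation p = 0.0380, adjusted p = 0.613).

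**Figure D4:**
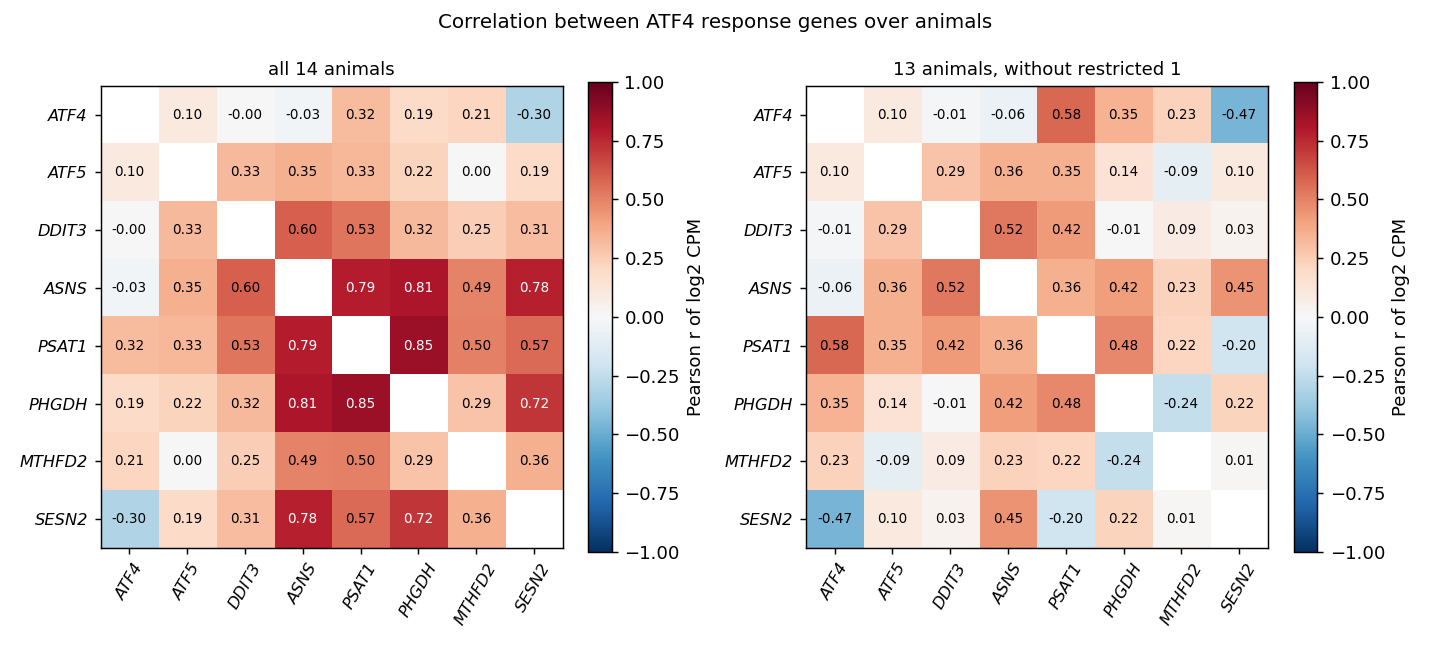
Pearson's r of log2 CPM for each pair of the 8 tested genes (rows and columns; colour from -1 in blue to 1 in red, with the value printed), over all 14 animals at left and over 13 animals without restricted 1 at right. The block of ASNS, PSAT1, PHGDH and SESN2, with r up to 0.854 at left, is paler at right, and the row of ATF4 is pale in both panels apart from PSAT1 and SESN2 at right.

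The tested genes outside the set whose levels over the 14 animals were most like those of each gene are given as a description. For ASNS they were ALDH1L2, a mitochondrial folate enzyme (r = 0.928, or 0.848 without restricted 1), PCBD1 (r = 0.927, or 0.795) and CD74, the invariant chain of MHC class II (r = 0.879, or 0.679). PHGDH was most like CD74 (r = 0.854), NAGK (0.834) and PCBD1 (0.833). Of these NAGK held without restricted 1 (0.872), while CD74 went to 0.564 and PCBD1 to 0.356. PSAT1 was most like PCBD1 (0.828), SIAH1 (0.824) and CCDC39 (0.797), which went to 0.344, 0.510 and 0.050 without restricted 1. SESN2 was most like PFKFB2 (0.866), SPAG7 (0.844) and ACTB (0.828). In the order of likeness to ASNS among 12186 genes, PHGDH was in place 8, PSAT1 in place 13 and SESN2 in place 16, but in places 1237, 1698 and 1043 without restricted 1.

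The genes most like the factors and MTHFD2 kept r of 0.707 or more without restricted 1. ATF5 was most like S100A10 (r = 0.938), TKT, the transketolase of the pentose phosphate pathway (0.922), and PRR5L (0.912), and without restricted 1 the values were 0.936, 0.930 and 0.910. ATF4 was most like FLOT1 (0.887), HSCB (0.884) and UBE2M (0.876), DDIT3 like LYPLA1 (0.839), SPSB1 (0.821) and CLIC4 (0.813), and MTHFD2 like PGAM5 (0.826), NDUFV2 (0.792) and TMEM143 (0.773).

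The rest of the pathway was read from lists of related genes, none of which held a gene that passed the threshold between diet groups (adjusted p = 1 for every tested gene named from them, edgeR quasi-likelihood test). They also show where restricted 1 was the highest animal, as for 7.75% of all tested genes, or the lowest, as for 8.10%. Among the other serine, glycine and folate enzymes, restricted 1 was highest for 6 of 13 tested genes and no other animal for more than 2. PSPH, which completes serine synthesis, was at 8.22 CPM there against 2.28 to 6.68 CPM in the other 13 animals. The mitochondrial folate genes MTHFD1L, at 4.71 CPM against 0.972 to 2.11 CPM, and ALDH1L2, at 6.15 CPM against 0.843 to 2.83 CPM, lay well clear of the other animals. SHMT2, which splits serine to glycine in mitochondria, was at 30.4 CPM against 19.1 to 26.1 CPM, and SHMT1 and AMT were also highest in restricted 1. The fold of SHMT2 between diet groups was 1.15 (unadjusted p = 0.0403), the single unadjusted p under 0.05 in this list, and 1.09 without restricted 1 (unadjusted p = 0.116). MTHFD1, one of the most abundant genes of the list, had a fold of 0.899 (95% interval 0.756 to 1.07).

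Other enzymes of amino acid synthesis and transamination had restricted 1 highest for 6 of 15, against at most 3 for any other animal. They were PYCR1 and ALDH18A1 of proline synthesis, the transaminases GOT1, GOT2 and GPT2, and GLUD1. GOT2, the mitochondrial aspartate transaminase, was at 1029 CPM in restricted 1 and at 609 to 787 CPM in the others. Its fold between groups was 1.12 (95% interval 0.992 to 1.27), that of GLUL, which makes glutamine, was 1.02 (95% interval 0.684 to 1.52), and that of GOT1 was 1.25 (unadjusted p = 0.0473), or 1.16 without restricted 1 (unadjusted p = 0.132). In the same list restricted 1 was the lowest animal for 3 genes, against at most 4 for any other animal: CTH, of cysteine synthesis, at 0.453 times the median of the other 13, OAT, of ornithine breakdown, at 0.475 times, and BCAT2, of branched-chain amino acid breakdown, at 0.738 times.

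Of the 20 cytosolic aminoacyl-tRNA synthetases, which charge transfer RNA, 9 were highest in restricted 1 and no more than 4 in any other animal. The excess was modest. GARS stood at 76.6 CPM against 48.3 to 65.2 CPM in the others, and AARS at 182 CPM against 141 to 172 CPM; the other 7 were EPRS, FARSB, MARS, NARS, SARS, TARS and YARS. Between diet groups 17 of the 20 had a fold above 1, against 49.7% of all tested genes, with a median log2 fold change of 0.06 and 0 past the threshold or at an unadjusted p under 0.05. Without restricted 1 the fold was above 1 for 18 of the 20, with a median log2 fold change of 0.05. The folds of AARS and EPRS were 1.05 (95% interval 0.955 to 1.15) and 1.05 (95% interval 0.963 to 1.15).

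In each remaining list of targets, stress response, transporter, sensor and partner genes, restricted 1 was highest for at most 3 tested genes. These lists differ in length, so the counts are not shares. Of 10 tested transcripts known as ATF4 targets outside the set, 0 were highest in restricted 1. It was the lowest animal for 1 of them, CTH, against at most 4 for any other animal. Against the median of the other 13 animals, restricted 1 ran from 0.453 times (CTH) to 1.41 times (NUPR1) over these 10, with DDIT4 at 0.516 times. DDIT4, an mTORC1 inhibitor also induced by glucocorticoids and low oxygen, had a fold of 0.685 between diet groups (95% interval 0.470 to 0.997, unadjusted p = 0.0485; 0.721 without restricted 1, unadjusted p = 0.0922), and VLDLR had 1.05 (95% interval 0.909 to 1.22). ADM2, below the filter, had 28 reads in restricted 1 and 0 to 9 in the others, and CHAC1, also below it, was highest in restricted 7. Among 16 genes for the eIF2 kinases, eIF2 and its exchange factor, restricted 1 was highest for EIF2B1 and EIF2B3, and the folds of EIF2S2 and EIF2S3 were 1.08 (95% interval 0.980 to 1.18) and 1.001 (95% interval 0.884 to 1.13).

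The amino acid transporters had restricted 1 highest for 1 of 14, SLC1A4, and lowest for 3, SLC7A2, SLC7A8 and SLC36A1. The folds of SLC7A8 and SLC38A2 were 1.09 (95% interval 0.738 to 1.60) and 1.14 (95% interval 0.927 to 1.40). Of the other branches of the unfolded protein response it was highest for 3 of 21 (HSP90B1, HERPUD1 and MANF), and the chaperones HSPA5 and CANX had folds of 1.04 (95% interval 0.898 to 1.21) and 1.06 (95% interval 0.963 to 1.17). Mitochondrial stress genes had it highest for 3 of 8, HSPA9, OMA1 and DELE1, of which OMA1 and DELE1 form the relay from mitochondria to eIF2. HSPA9 was at 363 CPM there against 239 to 292 CPM in the other 13, and its fold between groups was 1.09 (95% interval 0.967 to 1.22), with 0.993 (95% interval 0.889 to 1.11) for YME1L1. FGF21, a hormone gene induced by ATF4, had 5 reads in restricted 1 and none in the other 13 animals, where a count of 0 allows up to 3 reads. GDF15, the other gene of this list below the filter, had 2 reads in restricted 1, 2 in control 5 and none in the rest.

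Among sestrins and amino acid sensors of mTORC1, restricted 1 was highest for 2 of 17 (RRAGC and LAMTOR1) and lowest for 2, NPRL2 and SESN3, a paralog of SESN2 that stood at 0.265 times the median of the others. SEH1L and RRAGD had folds of 0.973 (95% interval 0.902 to 1.05) and 0.936 (95% interval 0.836 to 1.05). Of 9 bZIP partners of ATF4 it was highest for 0, and NFE2L1 and FOS had folds of 1.08 (95% interval 0.941 to 1.23) and 0.802 (95% interval 0.485 to 1.33). In the lists of other stress arms and partners, restricted 1 was the lowest animal for EIF2AK1, ATF6, PDIA6, HSPD1, NFE2L1 and ATF7.

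**Figure D5:**
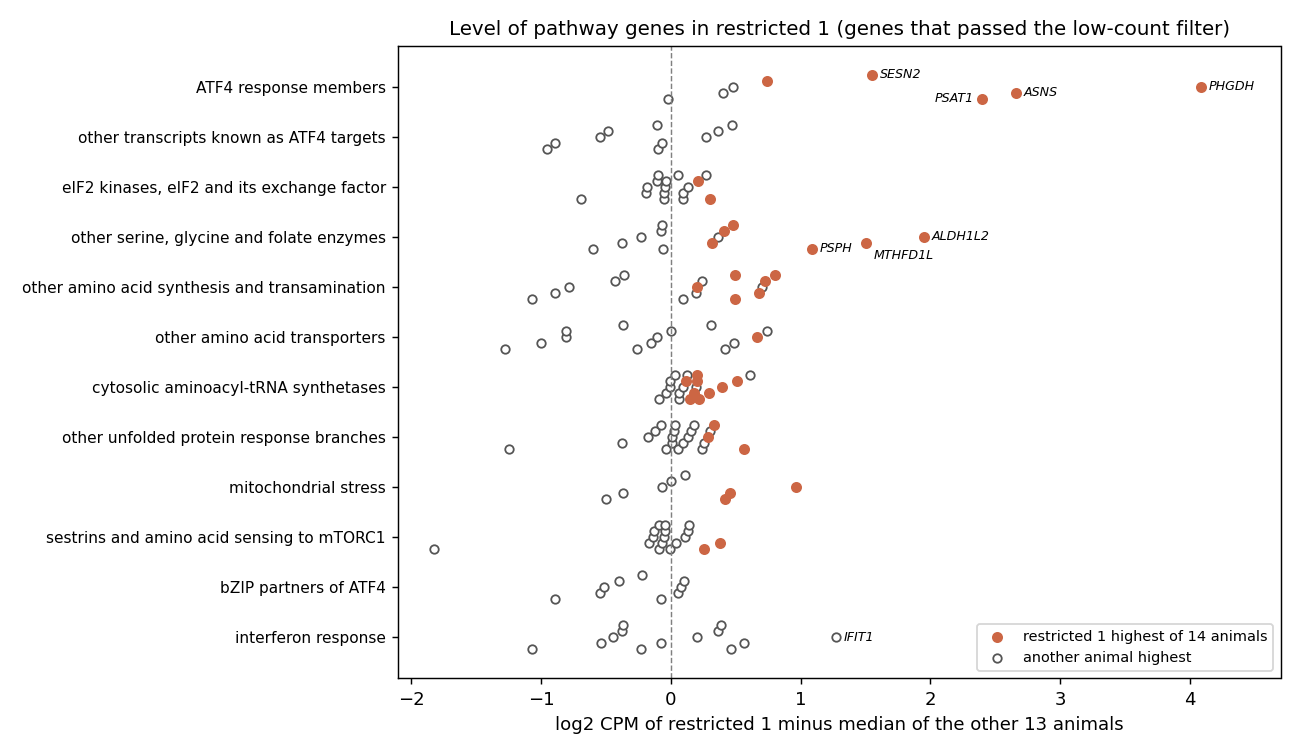
Log2 CPM of restricted 1 minus the median of the other 13 animals (horizontal axis) for each tested gene of each list (vertical axis); filled points are genes for which restricted 1 is the highest of the 14 animals. PHGDH, ASNS and PSAT1 lie farthest to the right, followed by ALDH1L2, SESN2, MTHFD1L, the interferon-response gene IFIT1 and PSPH; SESN3 lies farthest to the left.

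Markers of other cells were set beside the pattern in restricted 1. Its summed muscle fibre markers, at 197484 CPM, were the median of the restricted animals. MHC class II genes were highest there for 5 of 5 tested, with a summed level of 513 CPM against 202 to 307 CPM in controls and 211 CPM or more in restricted animals, and CD74 was at 335 CPM against 128 to 212 CPM in the other 13. The 9 macrophage markers summed to 30.8 CPM in restricted 1, second to restricted 7 at 37.7 CPM, with 14.01 to 29.6 CPM in controls and 15.6 to 37.7 CPM in restricted animals. The 7 T and NK cell markers summed to 9.79 CPM, with 2.03 to 6.98 CPM in controls and 2.76 to 10.1 CPM in restricted animals, where restricted 7 was highest. B and plasma cell markers summed to 9.92 CPM in restricted 1, within the control range of 5.68 to 12.1 CPM (7.78 to 15.3 CPM in restricted animals), and MZB1 had 0 reads there. Adipocyte markers (109 CPM, against 23.3 to 225 CPM in controls) and fibroblast markers (657 CPM, against 346 to 854 CPM) also lay within the control range, with 52.2 to 339 CPM and 405 to 961 CPM in restricted animals. So did the summed markers of endothelium, smooth muscle, satellite cells, nerve and erythroid cells. The part of these cells in the levels of the ATF4 response genes was not tested.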

How the data were processed

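The authors deposited whole-number read counts, not normalized, for 14 libraries of muscle RNA in 1 table that also gives each gene's length. Per the submitters' processing notes, FastQC, HISAT2, featureCounts and edgeR were used with the build ARS-UCD1.2; versions, annotation, strand use and the treatment of multiply aligned reads were not given in the sources used here, and reads of genes that overlap could not be separated by strand. Per the labels, RNA was extracted with Trizol, treated with DNase and column purified. Groups came from the treatment label, and replicate numbers follow sample order and pair nothing. Nothing says how the animals are related. The p-values set differences against the spread between these samples and treat the animals as independent, which could not be checked.

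Counts were analysed with edgeR 4.0.16 in R 4.3.3: filterByExpr (minimum count 10, minimum total 15), TMM scaling, the quasi-likelihood F test and Benjamini-Hochberg adjustment over all tested genes at 0.05. DESeq2 1.42.0 and limma 3.58.1 served as alternatives. Correlations used log2 CPM (prior count 2) and 100000 permutations, or all orders within a group of 7. TPM was computed from the deposited counts and lengths. On simulated data the edgeR step recovered 53.3% of 60 genes set at a 1.5-fold change, 86.1% of 72 set at 2-fold and 97% of 66 set at 3-fold, among 12064 genes. The changed genes were drawn at random from all tested genes. The biological coefficients of variation of MTHFD2, SESN2, ATF5, ASNS, PSAT1 and PHGDH lay at percentiles 91.1 to 99.6. These rates therefore do not give the recovery for those genes.

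The genes and lists were chosen with earlier results of these data known. Named were the 10 genes, the 2 most abundant tested genes of each list, and the 3 tested genes most correlated with each tested gene, except that 1 gene is not reported here; genes named for their level in restricted 1 or restricted 7, or for an unadjusted p, were chosen after their values were seen. The exact permutation tests of the 2 genes below the filter, the marker lists for B cells and MHC class II, and the settings without restricted 1 and restricted 7, and for list genes without restricted 1, were also added after the data were seen. All 10 symbols matched the reference table of another build, so no coordinates are given.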

Additional observations from a re-analysis of the deposited data

Results flagged for a closer look

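In groups of 7, an animal was singled out when its gap to the next, divided by the range of the group, exceeded the 95% critical value of Dixon's test. This held for 11 of 62 group values examined, 8 of them for restricted 1. Chance alone gives about 1 in 20 for normally distributed values, which CPM from few reads need not be. The genes are also not independent of each other, and CD74 was examined because it varied with ASNS and PHGDH. The count is therefore a description and does not measure an excess over chance.

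Among the ATF4 response genes, restricted 1 was set apart as the highest restricted animal for PHGDH (ratio 0.941, 16.4 against 1.55 CPM in the next animal), PSAT1 (0.875, 6.59 against 1.43 CPM), ASNS (0.696, 25.2 against 9.51 CPM), TRIB3 (0.65, 1.004 against 0.396 CPM) and SESN2 (0.606, 3.95 against 2.09 CPM). Control 7 was set apart for PHGDH (0.61, 3.46 against 1.81 CPM). Of the related genes, restricted 1 was set apart for GOT2 (0.758, 1029 against 787 CPM), CD74 (0.752, 335 against 188 CPM) and HSPA9 (0.642, 363 against 283 CPM).

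The other 2 were low values of single animals: CANX in restricted 4 (0.601, 145 against 169.9 CPM) and RRAGD in restricted 7 (0.598, 185 against 227 CPM).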

How the results depend on the processing

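The absence of a diet difference past the threshold held under all but 2 of 24 alternatives. DESeq2 called 1 gene, MTSS1L (log2 fold change -0.71, adjusted p = 0.0347), and edgeR on titles ending in A called 1, the unnamed ENSBTAG00000025385 (2.20, adjusted p = 0.0458); neither is an ATF4 response gene. Leaving out each animal gave 0 to 0. The 8 tested genes kept adjusted p-values of 0.867 to 1 over leaving out each animal.

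ATF4, DDIT3 and MTHFD2 kept their direction under all 24 alternatives. PHGDH turned negative with DESeq2 (-0.38), which replaced an outlying count of this gene, as for 7 genes in all. ATF5 apart, other reversals came in settings without restricted 1. ASNS and SESN2 kept their sign without restricted 1 alone (0.11 and 0.13). They reversed only in settings that also lacked restricted 7, whose title ends in B. On titles ending in A the log2 fold changes were -0.53 for PHGDH, -0.42 for PSAT1, -0.21 for ASNS and -0.0208 for SESN2; on titles starting with Y, -0.43 for PHGDH and -0.20 for PSAT1. Without restricted 1 and restricted 7 they were -0.33 for PHGDH, -0.33 for PSAT1, -0.20 for ASNS and -0.0078 for SESN2, and with neither filter nor restricted 1, -0.39 for PHGDH and -0.34 for PSAT1. Leaving out each animal gave -0.40 to 1.60 for PHGDH, -0.36 to 0.66 for PSAT1, 0.11 to 0.95 for ASNS and -0.27 to 0.0941 for ATF5, whose sign changed in 4 of the 14 fits.

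The count of correlated pairs was 4 with library-size scaling and 4 for deviations from the diet-group mean, and 0 to 5 on leaving out each animal (5 without restricted 6, 3 without restricted 7, 1 without control 4); the cause was not tested. The TRIB3 difference kept exact permutation p-values of 0.000583 to 0.0476 over 20 alternatives. No paired analysis was possible because replicate numbers follow sample order and carry no pairing. Depth limits TRIB3 and SLC7A5 most, with at most 16 and 13 reads.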

Other observations

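Beyond the stress response, the tested genes with a symbol that lay farthest above the other 13 animals in restricted 1 included 4 that encode contractile or sarcomere proteins. MYH4, a fast myosin heavy chain, was at 759 CPM against a median of 25.0 CPM, MYH3, the embryonic myosin, at 80.8 against 8.36 CPM, ACTC1, the cardiac actin of developing muscle, at 63.2 against 10.2 CPM, and CSRP3, a Z-disc protein, at 352 against 87.8 CPM. MYH4, MYH3 and CSRP3 were nearly as high in at least 1 other animal, with a highest level elsewhere of 751, 72.5 and 340.1 CPM in that order. For ACTC1 the highest level elsewhere was 46.1 CPM. Counts of the near-identical myosin genes are uncertain. By contrast, PCBD1, a cofactor-recycling enzyme, at 10.4 CPM, and CCDC39, a gene of motile cilia, at 8.10 CPM, had highest levels elsewhere of 2.49 and 1.76 CPM.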
